A study of Mus musculus with 32 samples.

Results

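Microglia of SOD1G93A mice that lack LAG-3 were compared between postnatal day 140 (P140), the late symptomatic stage, and P120, the early symptomatic stage. The comparison rests on the 6 libraries labelled as LAG-3 knockouts in the stage experiment, 3 at P120 and 3 at P140, out of 12 libraries in that experiment and 32 in the series. All genes were considered, and 18669 of the 74016 genes in the table passed the filter on low counts and were tested. In all 12 libraries the mice carried the human SOD1G93A transgene (B6.Cg-Tg(SOD1*G93A)1Gur/J), a mutant form of superoxide dismutase 1 that causes a motor neuron disease modelling amyotrophic lateral sclerosis. The knockout mice were homozygous for a targeted disruption of Lag3 (Lag3tm1Doi), which removes LAG-3 from every cell and not from microglia alone, and the LAG-3+/+ mice were littermates from crosses of heterozygotes. CD11b+/CD45int cells were sorted from the lumbar spinal cord and amplified as full-length cDNA by the SMART-seq mRNA HT LP Kit. The question was how far the microglial transcriptome moved between the stages when LAG-3 was absent. The labels do not say whether 1 library was 1 mouse, so p-values measure the spread between these libraries.

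LAG-3 is an inhibitory immune checkpoint receptor best known from exhausted T cells, where it restrains activation after binding MHC class II. Microglia are the resident macrophages of the central nervous system. In neurodegeneration they lose homeostatic genes such as *P2ry12* and *Tmem119* and take up the disease-associated microglia (DAM) program of *Apoe*, *Cst7*, *Spp1* and *Clec7a*, which depends in part on the lipid receptor TREM2 and its adaptor TYROBP. They also divide locally in the diseased cord, present antigen, respond to interferon and clear debris through phagosomes and lysosomes.

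*Lag3* (ENSMUSG00000030124, chromosome 6, 124881320 to 124888765 of GRCm39, minus strand) had 7, 14 and 10 counts in the P120 and 4, 1 and 10 counts in the P140 knockout libraries. The LAG-3+/+ libraries held 53.4 to 62.9 CPM (counts scaled to a common library size with edgeR's TMM factors) at P120 and 24.5 to 28.1 CPM at P140. Microglia markers were high in every library: 11 of the 12 listed were tested, and their summed level was 36000 to 41700 CPM at P120 and 38100 to 67900 CPM at P140.

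Single libraries stood apart in several respects that touch the results. Totals ran from 26556028 to 42822623 counts, and 23459 to 23896 genes had a count in 5 of the 6 knockout libraries but 20260 in P140 replicate 1, which also gave 35.0% of its counts to its top 50 genes. The deviation of a library's log2 CPM from the P120 knockout mean followed transcript length in that library with Spearman's rho of -0.523 over 8673 genes, so short transcripts were relatively high. The same rho was -0.234 and -0.155 in P140 replicates 2 and 3, -0.184 to 0.177 in the P120 knockout libraries and -0.530 to -0.589 in the P140 LAG-3+/+ libraries. The sex listed for a library matched its *Xist* and Y-linked transcripts in 1 of the 6 knockout libraries and in 3 of all 12, and P140 replicate 3 held both *Xist* (23.5 CPM) and Y-linked transcripts (140 CPM). Whether the listed sexes or the library names were in error was not tested. The listed sex was used only as a covariate in an alternative fit. Each list median below stands with its value without the single library that moved it farthest, and with the correction for length and GC content where that moved it by more than 1.5 times.

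**Figure D1:**
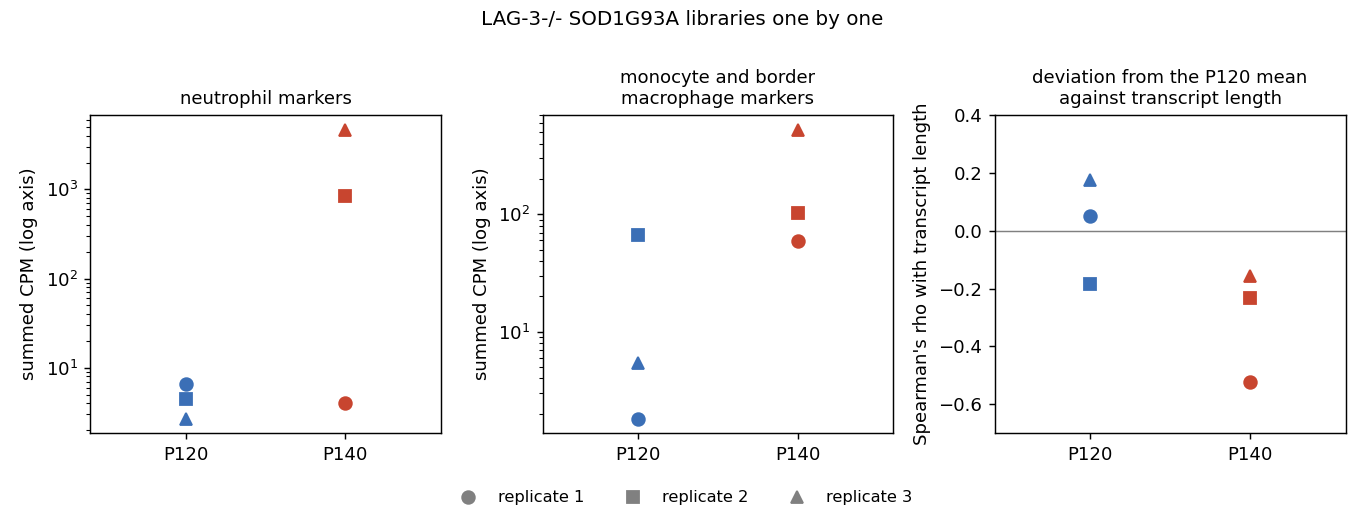
The 6 LAG-3-/- libraries, P120 in blue and P140 in red, with the marker shape giving the replicate. The left and middle panels show the summed CPM of the neutrophil and of the monocyte and border macrophage markers on log axes, and the right panel shows the Spearman correlation of each library's deviation from the P120 mean with transcript length. Neutrophil markers were high in P140 replicates 2 and 3 alone (854 and 4690 CPM), and the strongest length relation was that of P140 replicate 1 (-0.523).

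No gene passed an adjusted p of 0.1 between P140 and P120 in the knockout (percent called 0 in each direction). The smallest adjusted p of edgeR's quasi-likelihood test was 0.475, and 1658 genes had an unadjusted p under 0.05 (8.88%), of which 1227 were higher (6.57%) and 431 lower (2.31%) at P140. DESeq2 called 358 genes higher (2.2% of the 16254 given an adjusted p) and 91 lower (0.56%) on the same counts. Of those 449 genes, 44 had a fitted log2 fold change above 20 in size and 85 were at 0 in every library of 1 stage, while edgeR and limma's voom with sample quality weights, an alternative added after seeing the data, called none. The log2 fold changes were not small: 4102 genes (22%) differed by more than 1 on the log2 scale, but the median standard error was 0.70. The median log2 fold change of all tested genes was -0.03. Scaling to total counts without TMM factors moved that median to -0.29, and lowered the 19 list medians by 0.238 to 0.328, so list medians are to be read against the median of all genes under the same scaling. Because no gene was called, the values below describe levels and none of them is a change that passed the test.

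Among the genes with the smallest p on the higher side were *Cdk1*, *Ccnb1* and *Stmn1* of the list of cell cycle genes. *Cdk1*, the kinase that drives entry into mitosis, was at 12, 18.1 and 13.6 CPM in the P120 libraries and at 86.3, 73.1 and 48.8 CPM in the P140 libraries (log2 fold change 2.25, SE 0.43, adjusted p = 0.475). *Ccnb1*, which encodes its partner cyclin B1, was at 8.79, 11.3 and 4.81 CPM at P120 and at 78.9, 93.6 and 46.2 CPM at P140 (log2 fold change 3.13, SE 0.63, adjusted p = 0.475). The stages did not overlap for either gene, and the lowest P140 library was replicate 3 in both. *Stmn1*, a microtubule-destabilising protein of dividing cells, was at 51.0 to 82.0 CPM at P120 and 139 to 335 CPM at P140. *Hmgn2*, a nucleosome-binding protein, was at 193 to 230 CPM at P120 and 439 to 662 CPM at P140. *Tuba1c*, an alpha-tubulin, was at 23.1 to 34.4 CPM at P120 and 68.5 to 127 CPM at P140, and *Cetn2*, a centrosome protein, at 21.2 to 27.6 and 56.3 to 75.4 CPM. For these 4 genes as well, every P140 library lay above every P120 library. *Gsn*, the actin-severing protein gelsolin, was at 12.5 to 16.4 CPM at P120 and 32.9 to 58.4 CPM at P140. *Mocs2*, of molybdenum cofactor synthesis, was at 14.9 to 28.5 and 57.5 to 63.4 CPM. *H3f3a*, the replication-independent histone H3.3, was at 82.4 to 107 and 160 to 188 CPM. In LAG-3+/+ microglia *Cetn2* (log2 fold change 1.47), *Hmgn2* (1.37), *Mocs2* (1.25), *Stmn1* (1.18), *Tuba1c* (1.05) and *H3f3a* (0.74) were called higher at P140 in the same fit. There *Cdk1* (0.31), *Ccnb1* (-0.03) and *Gsn* (0.69) were not called.

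**Figure D2:**
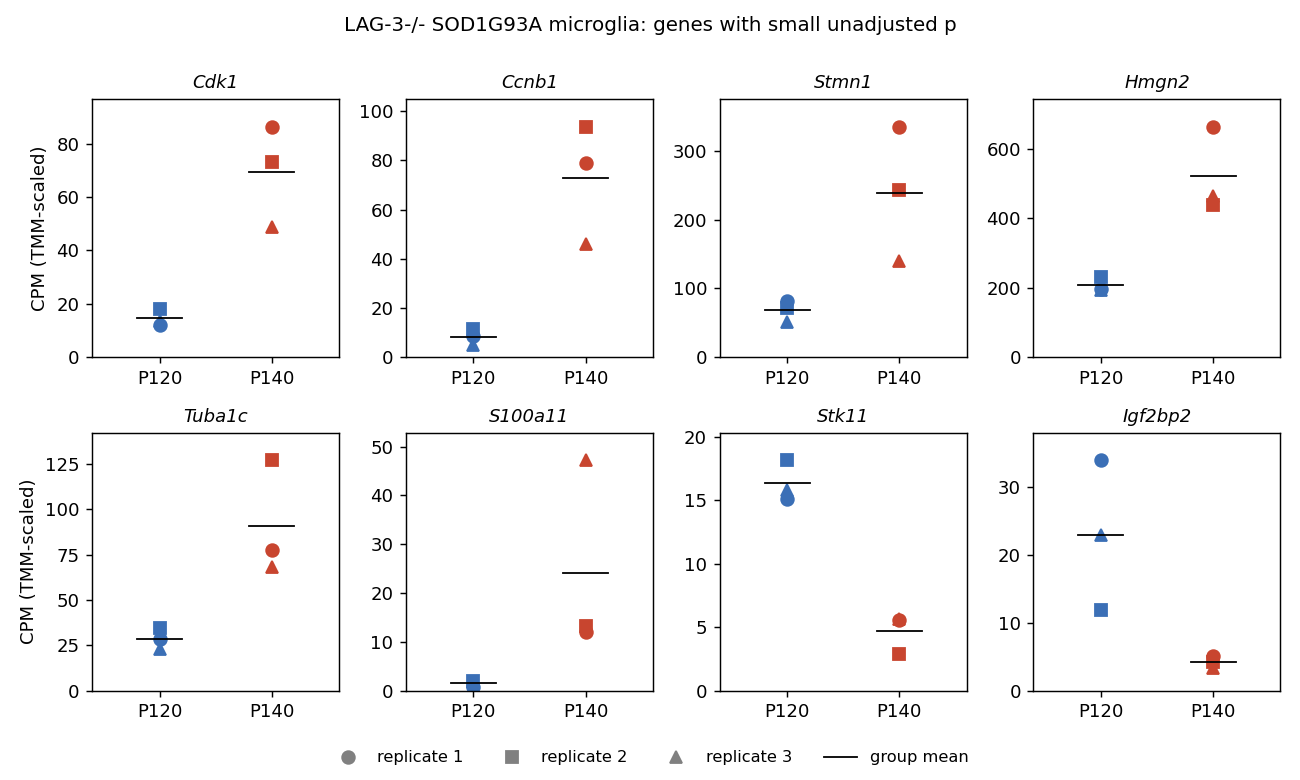
TMM-scaled CPM of 8 genes in each LAG-3-/- library, from 0, with P120 in blue, P140 in red, the marker shape giving the replicate and a bar at the mean of each group of 3. The P140 libraries lay above the P120 libraries for *Cdk1* (48.8 to 86.3 against 12 to 18.1 CPM) and below them for *Stk11* (2.91 to 5.68 against 15.1 to 18.1 CPM).

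The list of cell cycle genes showed the same at the level of the group. All 101 members were tested, and none was called. The 3 P140 libraries lay above the 3 P120 libraries for 38 members and below them for 1, against 7.39% and 7.37% of all genes, and 26 members had an unadjusted p under 0.05 on the higher side and 0 on the lower, against 6.57% and 2.31% of all genes. Their median log2 fold change was 0.89. It was 0.95 after length and GC correction, and 0.82 without P140 replicate 2 to 1.07 without P140 replicate 1. Relative to the P120 mean, the list's median stood at 0.88, 1.32 and 0.98 on the log2 scale in P140 replicates 1, 2 and 3. Replicate 2 was thus farthest for this list, whereas replicate 1 was for most others. *Hmgb2*, a chromatin protein of proliferating cells, was at 29.9 to 38.0 CPM at P120 and 103 to 132 CPM at P140, *Cenpa*, the centromeric histone, at 11 to 19.3 and 33.1 to 84.4 CPM, *Birc5*, the mitotic regulator survivin, at 6.77 to 19.3 and 27.0 to 81.0 CPM, and *Pcna*, the sliding clamp of DNA replication, at 46.5 to 79.2 and 104 to 142 CPM. Members that overlapped included *Mki67* (16, 42.7 and 30.7 CPM at P120, and 15, 95.8 and 47.5 CPM at P140). *Top2a* did so as well (32.1, 27.1 and 14.6 CPM, and then 14.2, 125 and 68.3 CPM). For both, P140 replicate 1 lay below every P120 library. In the DESeq2 fit 14 members were called higher and 0 lower, against 2.2% and 0.56% of all genes given an adjusted p.

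The start regions of *Cdk1* and *Ccnb1* are shown because CCAAT boxes and the cell cycle homology element are known features of G2/M promoters. The sequences are the 250 bases before the RefSeq start site in GRCm38.p6, with CCAAT and TTTGAA, searched on both strands, in capitals (a match on the other strand reads ATTGG or TTCAAA):
*Cdk1* (chr10:69352913-69353162, minus strand): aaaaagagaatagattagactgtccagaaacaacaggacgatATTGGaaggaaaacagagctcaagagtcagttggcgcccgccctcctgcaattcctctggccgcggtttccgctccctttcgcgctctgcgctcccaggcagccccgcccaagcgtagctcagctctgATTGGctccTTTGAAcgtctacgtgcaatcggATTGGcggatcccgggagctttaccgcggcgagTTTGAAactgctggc
*Ccnb1* (chr13:100786487-100786736, minus strand): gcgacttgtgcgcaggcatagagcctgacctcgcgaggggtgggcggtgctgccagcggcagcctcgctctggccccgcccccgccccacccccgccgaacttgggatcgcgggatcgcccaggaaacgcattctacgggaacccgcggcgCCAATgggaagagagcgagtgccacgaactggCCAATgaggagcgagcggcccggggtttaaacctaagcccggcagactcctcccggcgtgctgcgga

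The *Cdk1* window held 5 matches, with both motifs among them. The *Ccnb1* window held 2, both of CCAAT, and no TTTGAA. None of the matches overlapped. Of 85 windows of 79 cell cycle genes, 64.7% held CCAAT and 25.9% held TTTGAA, against 33.8% and 16.0% of all 32851 windows. A match is a run of letters and was not tested as a binding site.

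On the lower side the genes with the smallest p belonged to no single list. *Stk11*, which encodes the kinase LKB1, was at 15.1, 18.1 and 15.8 CPM at P120 and at 5.52, 2.91 and 5.68 CPM at P140 (log2 fold change -1.80, SE 0.39, adjusted p = 0.475). *Igf2bp2*, an RNA-binding protein, was at 34.0, 11.9 and 22.9 CPM and then at 5.09, 4.2 and 3.29 CPM (log2 fold change -2.45, SE 0.55). *Ulk2*, an autophagy kinase, was at 89.8 to 141 CPM at P120 and 20.2 to 65.1 CPM at P140, and *Acsl4*, which activates polyunsaturated fatty acids, at 96.0 to 133 and 41.7 to 66.3 CPM. The stages were separate for these 4 genes. For *Acsl4* the log2 fold change of -0.95 was -0.55 after length and GC correction. The others of the 10 were *Dhx29*, *Ankrd26*, *Rsbn1*, *Golm2*, *Hnrnpr* and *Recql5*, with log2 fold changes of -0.67 to -1.79. After that correction they ran from -0.42 for *Hnrnpr* to -1.56 for *Rsbn1*, with *Dhx29* at -0.78 and *Ankrd26* at -0.96.

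Mitochondrial and ribosomal genes formed the next block of small shifts in 1 direction. Of the 77 nuclear oxidative phosphorylation genes, which encode subunits of the respiratory chain and of ATP synthase, 35 had all P140 libraries above all P120 libraries and 0 below (7.39% and 7.37% of all genes). At an unadjusted p under 0.05, 58 were higher and 0 lower (6.57% and 2.31% of all genes), and the median log2 fold change was 0.80. *Sdhc*, a membrane subunit of complex II, was at 24, 29.6 and 25.9 CPM at P120 and at 112, 57.4 and 44.3 CPM at P140. *Atp5mc1*, a subunit of the ATP synthase ring, was at 37.2, 58.6 and 47.3 CPM and then at 118, 95.5 and 80.9 CPM. *Atp5mf*, another ATP synthase subunit, was at 37.9 to 54.4 and 74.5 to 91.6 CPM. In the first 2 genes P140 replicate 1 was the highest library and P140 replicate 3 the lowest of its stage. The same order held for the list's median shift, which was 1.21, 0.83 and 0.28 in P140 replicates 1, 2 and 3. Within P120, replicate 2 was the highest library for 70 of the 77 genes (90.9%, against 36.2% of all genes). These transcripts are short, with a median length of 794 bases, and the median was 0.92 after length and GC correction and 0.56 without P140 replicate 1. Of the 15 transcripts of the mitochondrial genome, 4 were non-overlapping and higher and 0 lower (7.39% and 7.37% of all genes), and the median was 0.52, or 0.37 without P140 replicate 1 and 0.72 without P120 replicate 2. *mt-Co2*, a subunit of complex IV, was at 538 to 715 CPM at P120 and 741 to 1224 CPM at P140, *mt-Nd4*, a subunit of complex I, at 378 to 574 and 612 to 820 CPM, and *mt-Rnr1*, a mitochondrial ribosomal RNA, at 43.3 to 49.7 and 60.6 to 88.9 CPM. Of 78 cytosolic ribosomal protein genes 19 were non-overlapping and higher and 0 lower, against 7.39% and 7.37% of all genes. Their median was 0.50, and it was 0.78 without P120 replicate 2 and 0.37 without P120 replicate 3. *Rpl23* was at 73.8 to 129 CPM at P120 and 143 to 177 CPM at P140, and *Rpl18* at 69.2 to 96.2 and 118 to 164 CPM. Many ribosomal protein genes have near-identical pseudogene copies, and how the estimates divide reads between them was not tested.

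**Figure D3:**
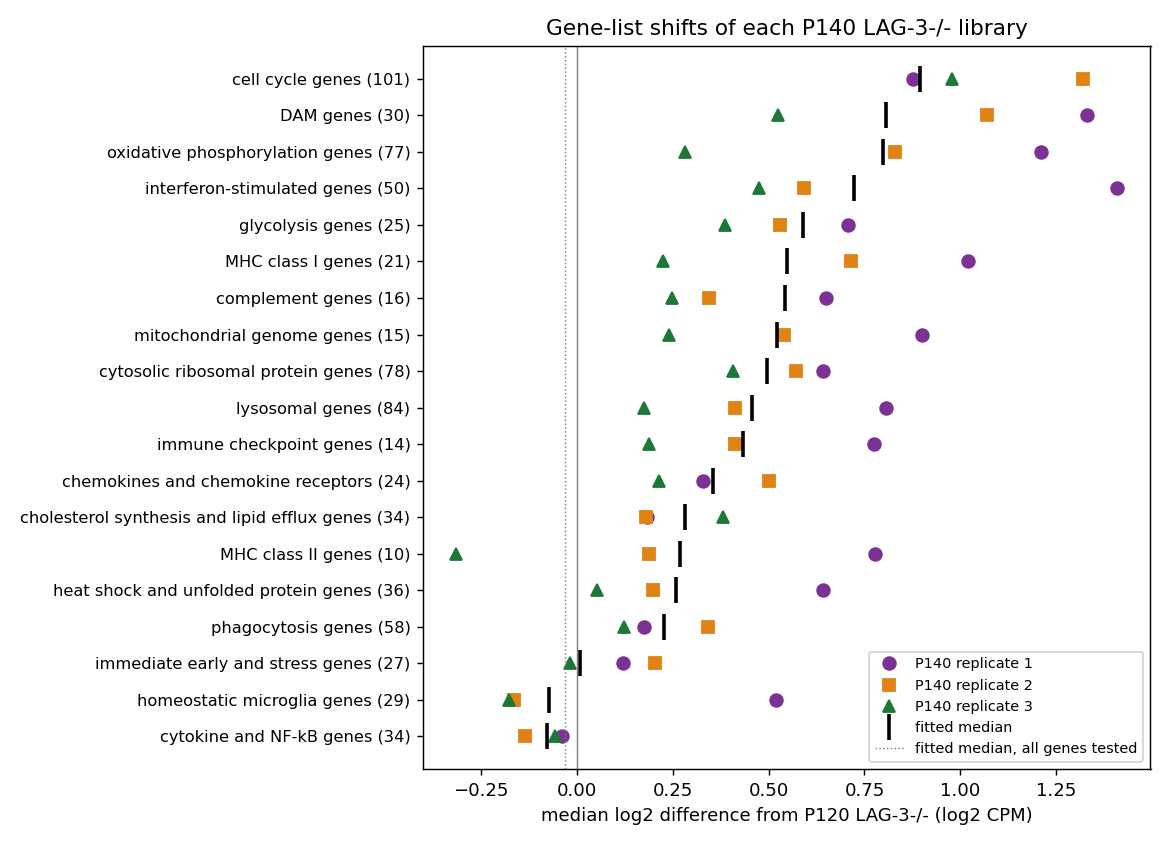
Median difference in log2 CPM from the P120 LAG-3-/- mean over the tested members of each process list (number in brackets), for P140 replicates 1 (circles), 2 (squares) and 3 (triangles), with a bar at the fitted median log2 fold change and a dotted line at the fitted median of all tested genes (-0.03). Replicate 1 lay farthest to the right for most lists, and for the cell cycle list replicate 2 did (1.32).

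Most DAM genes were higher in the P140 libraries than in 2 of the 3 P120 libraries, and P120 replicate 2 was near the P140 level. *Apoe*, the lipid carrier, was at 7928, 37420 and 5158 CPM in the P120 libraries and at 42850, 37510 and 22030 CPM in the P140 libraries (log2 fold change 1.02, SE 0.62). *Cst7*, a cysteine protease inhibitor, was at 178, 646 and 59.3 CPM and then at 1104, 869.5 and 429.8 CPM. *Spp1*, the secreted protein osteopontin, was at 1407, 5585 and 1234 CPM and then at 8354, 6943 and 3943 CPM. In all 3 genes P120 replicate 2 lay above P140 replicate 3, so the stages overlapped. *Trem2*, the lipid receptor, was at 854 to 1134 CPM at P120 and 1092 to 2182 CPM at P140, and its adaptor *Tyrobp* at 880 to 1758 and 1582 to 3756 CPM. *Clec7a*, the beta-glucan receptor Dectin-1, was at 192 to 637 CPM and 462 to 709 CPM. The integrin *Itgax* (103 to 276 and 168 to 321 CPM), the lipase *Lpl* (708 to 1776 and 1136 to 1510 CPM) and the receptor tyrosine kinase *Axl* (571 to 1255 and 396 to 1524 CPM) overlapped more widely, with log2 fold changes of 0.41, 0.29 and 0.21. With *Tyrobp*, the smallest p in the list belonged to *Cd52*, a surface glycoprotein (176 to 398 and 366 to 776 CPM), and the lysosomal membrane protein *Cd68* (1050 to 1540 and 1500 to 3030 CPM), and both overlapped.

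All 30 DAM genes were tested and all 30 had a positive log2 fold change, with a median of 0.81, but the libraries of the stages were separate for 1 of them, *Lyz2* (998 to 2840 and 3140 to 4320 CPM), or 3.33% of the list against 7.39% of all genes. All 30 were highest of the P120 libraries in P120 replicate 2, which was the highest in 36.2% of all tested genes. Against P120 replicates 1 and 3 alone, the 3 P140 libraries lay above for 26 of the 30 members and below for 0, against 14.5% of all genes in each direction. P120 replicate 2 was singled out by the values of these same genes. The larger counts without it, here and in the fit that follows, are therefore a description and no test. Without P120 replicate 2 the median was 1.36, 26 members had an unadjusted p under 0.05 and were higher (7.46% of all genes in that fit) instead of 12 (6.57%), and 1 member, the fatty acid-binding protein gene *Fabp5*, passed an adjusted p of 0.1 (log2 fold change 3.99, SE 0.45, adjusted p = 0.0609). *Fabp5* was at 9.79, 109 and 7.22 CPM at P120 and at 163, 167 and 75.7 CPM at P140. In that fit 4 genes were called in all, the others being *Anxa2* (2.42), *Cd300lf* (2.10) and *5930430L01Rik* (7.15), and these 4 are named because leaving out that library called them. The median of the DAM list was 0.63 without P140 replicate 1 and 0.58 without P120 replicate 3.

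**Figure D4:**
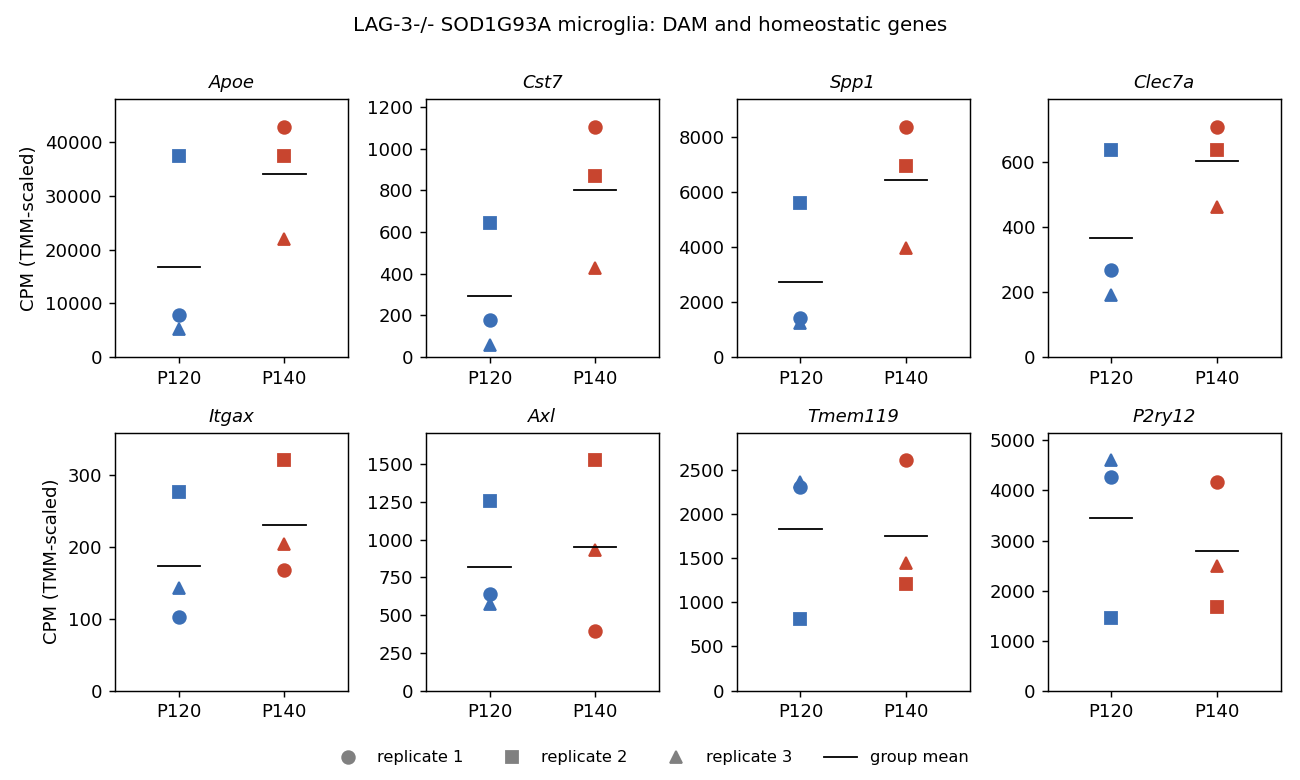
TMM-scaled CPM of 6 DAM genes and of the homeostatic genes *Tmem119* and *P2ry12* in each LAG-3-/- library, from 0, with P120 in blue, P140 in red, the marker shape giving the replicate and a bar at the mean of each group of 3. P120 replicate 2 (blue square) was near the P140 libraries for *Apoe* (37420 CPM) and below the other P120 libraries for *P2ry12* (1457 CPM).

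Homeostatic genes did not separate by stage, and P120 replicate 2 was low. *P2ry12*, the purinergic receptor of process motility, was at 4269, 1457 and 4603 CPM at P120 and at 4176, 1679 and 2494 CPM at P140 (log2 fold change -0.31, SE 0.43). *Tmem119* was at 2308, 806 and 2363 CPM and then at 2607, 1202 and 1450 CPM (log2 fold change -0.06, SE 0.38). P140 replicate 1 held both at the level of P120 replicates 1 and 3, whereas P140 replicates 2 and 3 were lower. The fractalkine receptor *Cx3cr1* was at 1485 to 1784 CPM at P120 and 1156 to 1596 CPM at P140, and the selectin ligand *Selplg* at 1437 to 2974 and 1626 to 3561 CPM. Over the 29 tested members (30 listed) the median was -0.07, with 2 non-overlapping and higher and 1 lower, against 7.39% and 7.37% of all genes. Of the 29, 23 were lowest of the P120 libraries in replicate 2, against 31.8% of all tested genes, and the median was -0.27 without that library, 0.15 without P120 replicate 3 and 0.15 after length and GC correction. Against P120 replicates 1 and 3 alone, the P140 libraries lay above for 3 members and below for 11, against 14.5% of all genes in each direction. Replicate 2 was set aside by the values of these genes, so this count is no test either. *Aif1*, which encodes the microglial marker Iba1, was at 284 to 371 CPM at P120 and 396 to 1002 CPM at P140 (log2 fold change 1.05, SE 0.29), with no overlap and with the highest value in P140 replicate 1. The secreted proteins *Olfml3* (750 to 881 and 899 to 1960 CPM) and *Serpine2* (1160 to 2170 and 1790 to 3990 CPM) had the next smallest p of the list.

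Interferon-stimulated genes were higher in all 3 P140 libraries for 14 of 50 members and lower for 0, against 7.39% and 7.37% of all genes, with a median log2 fold change of 0.72. *Oas1a*, the sensor of double-stranded RNA, was at 16.6, 51.5 and 18.3 CPM at P120 and at 138, 82.7 and 59.5 CPM at P140 (log2 fold change 1.70, SE 0.47). *Slfn2*, a schlafen family gene, was at 105 to 127 CPM at P120 and 192 to 324 CPM at P140, and *Ifitm3*, a membrane restriction factor, at 18.7 to 81.8 and 83.6 to 207 CPM. *Ly6e*, a surface protein, was at 816 to 1040 and 1090 to 2390 CPM. Other members had a negative log2 fold change, with stages that overlapped. *Ifit1* was at 472, 27.6 and 5.01 CPM at P120 and at 82.9, 22.5 and 31.9 CPM at P140 (-1.88, SE 1.37). *Rsad2* (-1.28), *Cmpk2* (-1.14) and *Gbp7* (-1.48) were further examples. P120 replicate 1 was the highest knockout library for *Ifit1*, *Rsad2* and *Cmpk2*. The list's median shift was 1.41, 0.59 and 0.48 in P140 replicates 1, 2 and 3, and its median was 0.39 without P140 replicate 1 and 0.98 without P120 replicate 2. The 250 bases before the start of *Oas1a* are shown for the interferon response element, searched on both strands as GAAA, any 2 bases and GAAA again, with 2 overlapping matches in capitals:
*Oas1a* (chr5:120907526-120907775 of GRCm38.p6, minus strand): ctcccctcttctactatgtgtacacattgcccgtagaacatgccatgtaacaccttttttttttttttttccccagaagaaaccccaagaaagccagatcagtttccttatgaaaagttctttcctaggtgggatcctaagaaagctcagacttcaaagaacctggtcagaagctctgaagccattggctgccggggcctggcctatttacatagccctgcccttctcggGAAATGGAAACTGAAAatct

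That motif stood in 45.5% of 44 windows of 36 interferon-stimulated genes and in 2.98% of all windows.

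Of 21 genes of MHC class I and its peptide loading 20 had a positive log2 fold change, against 48.24% of all genes, with a median of 0.55. The stages were separate for 2 of them, both higher, which is 9.52% against 7.39% of all genes. The median was 0.33 without P140 replicate 1 and 0.73 without P140 replicate 3, and P120 replicate 2 was the highest P120 library for 17 of the 21 (81%, against 36.2% of all genes). *B2m*, the light chain of class I molecules, was at 1927, 3122 and 1543 CPM at P120 and at 7848, 5422 and 3094 CPM at P140 (log2 fold change 1.31, SE 0.34), so that P140 replicate 3 reached the P120 range. *H2-D1*, a class I heavy chain, was at 1598 to 3479 and 3158 to 7777 CPM, and *Psmb8*, an immunoproteasome subunit, at 128 to 176 and 177 to 369 CPM. The 10 genes of the MHC class II list, which holds class II chains, the peptide-loading genes and the transactivator gene *Ciita*, had a median of 0.27, which was -0.04 without TMM factors and 0.16 after length and GC correction, and shifts of 0.78, 0.19 and -0.32 in P140 replicates 1, 2 and 3, and their median was -0.04 without P140 replicate 1 and 0.54 without P120 replicate 3. Of the 10, 0 were non-overlapping and higher and 1 lower (7.39% and 7.37% of all genes), the latter *Ciita*, at 0.163, 0.0989 and 3.11 CPM at P120 and at 0, 0.0239 and 0 CPM at P140. The peptide-loading genes *H2-DMa* (207 to 239 and 220 to 482 CPM) and *H2-DMb1* (139 to 161 and 152 to 314 CPM) overlapped. *H2-Aa*, the class II alpha chain, was at 16.7, 27.9 and 49.5 CPM at P120 and at 44.2, 32.4 and 22 CPM at P140. The stages covered the same range for it.

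Complement, lysosomal and phagocytic genes also had positive medians, of 0.23 to 0.54. The 16 tested complement genes had a median of 0.54, which was 0.38 without P140 replicate 3 and, over the same genes, 0.7 without P120 replicate 2. Of the 16, 3 were non-overlapping and higher and 1 lower (7.39% and 7.37% of all genes). *C1qb*, a chain of the initiating C1q complex, was at 4269 to 5888 CPM at P120 and 6019 to 13720 CPM at P140, and its partners *C1qa* (1810 to 2720 and 2430 to 4030 CPM) and *C1qc* (3650 to 5020 and 4550 to 11000 CPM) overlapped. Among 84 lysosomal genes 17 were non-overlapping and higher and 1 lower, against 7.39% and 7.37% of all genes. Their median was 0.46, and it was 0.27 without P140 replicate 1 and 0.61 without P140 replicate 3. *Psap*, the precursor of the saposins that present lipids to lysosomal enzymes, was at 1601, 1315 and 1421 CPM and then at 4199, 3380 and 1805 CPM (log2 fold change 1.11, SE 0.29), and *Aga*, a lysosomal amidase, at 51.8 to 66.3 and 109 to 142 CPM. *Atp6v1f*, a subunit of the proton pump, was at 73.6 to 122 and 130 to 215 CPM. For these 3 genes the stages were separate. Of 58 phagocytosis genes 11 were non-overlapping and higher and 2 lower, against 7.39% and 7.37% of all genes. Their median was 0.23, with -0.03 without TMM factors, 0.34 after length and GC correction, 0.08 without P140 replicate 2 and 0.11 without P120 replicate 3. *Fgr*, a Src family kinase, was at 74.1 to 85.7 CPM at P120 and 142 to 194 CPM at P140, and *Arpc2*, a subunit of the actin-nucleating Arp2/3 complex, at 405 to 445 and 562 to 747 CPM. Of 34 genes of cholesterol synthesis and lipid efflux 3 were non-overlapping in each direction (8.82%, close to the 7.39% and 7.37% of all genes), with a median of 0.28 that was 0.16 without P120 replicate 2 and 0.13 without P140 replicate 3. *Plin2*, a lipid droplet protein, was at 42.7 to 130 and 160 to 180 CPM, *Npc2*, a lysosomal cholesterol carrier, at 410 to 839 and 708 to 1390 CPM, and *Ebp*, a sterol isomerase, at 40.8 to 61.8 and 62.7 to 106 CPM. Of 25 glycolysis genes 6 were non-overlapping and higher and 3 lower, against 7.39% and 7.37% of all genes. Their median was 0.59, and it was 0.39 without P120 replicate 1, 0.41 without P140 replicate 1 and 0.83 without P120 replicate 2. Of its enzymes *Gapdh* was at 587 to 886 and 967 to 1218 CPM, *Eno1* at 587 to 688 and 819 to 1490 CPM, and *Pgam1* at 96.4 to 181 and 175 to 300 CPM.

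The cytokine and immediate early lists had medians near 0, and the heat shock, chemokine and checkpoint lists had medians of 0.26 to 0.43. The 34 tested cytokine and NF-kB genes had a median of -0.08, with 0 non-overlapping and higher and 4 lower (11.8%, against 7.37% of all genes). It was -0.21 without P120 replicate 1, -0.18 without P120 replicate 3, -0.15 without P140 replicate 2, -0.03 without P120 replicate 2 and -0.05 after length and GC correction. Both *Rel*, an NF-kB subunit (53.6 to 70.8 and 13.6 to 48.8 CPM), and *Rela* (118 to 133 and 39.8 to 116 CPM) were lowest in P140 replicate 1, which was the highest for *Casp1*, the inflammasome protease (51.8 to 65.2 and 49.3 to 181 CPM), and for *Tlr2*, a receptor of bacterial lipoproteins (424 to 608 and 583 to 950 CPM). The 27 immediate early and stress genes had a median of 0.01, which was -0.30 without TMM factors and 0.08 after length and GC correction. It was -0.03 without P120 replicate 1, 0.14 over the same genes without P120 replicate 2 and 0.24 without P140 replicate 3. Their smallest p belonged to *Atf3* (40.8 to 142 and 103 to 171 CPM), *Myc* (88.8 to 145 and 123 to 181 CPM) and *Klf2* (3.23 to 9.07 and 0 to 3.26 CPM), all transcription factors. The 36 heat shock and unfolded protein genes had a median of 0.26, which was -0.02 without TMM factors, 0.39 after length and GC correction and 0.16 without P140 replicate 1. Among them were *Sec61b*, of the translocon (26.7 to 32.7 and 46.6 to 79.7 CPM), the disulfide isomerase *Pdia6* (459 to 546 and 557 to 1260 CPM) and the chaperone *Dnajb11* (155 to 177 and 171 to 342 CPM). The 24 chemokines and chemokine receptors had a median of 0.36, which was 0.79 over the same genes without P120 replicate 2. Of them, 1 was non-overlapping and higher (4.17%, against 7.39% of all genes). The chemokines *Cxcl16* (192 to 346 and 311 to 606 CPM) and *Ccl9* (177 to 241 and 205 to 509 CPM) overlapped, and the formyl peptide receptor gene *Fpr2* was at 0 CPM in the P120 libraries and at 0, 5.87 and 5.17 CPM at P140. Among 14 tested immune checkpoint genes the median was 0.43, which was 0.19 without P140 replicate 1 and 0.60 without P140 replicate 3, and 2 were non-overlapping and higher (14.3%, against 7.39% of all genes). *Havcr2*, which encodes the checkpoint receptor TIM-3, was at 252 to 305 CPM at P120 and 306 to 457 CPM at P140, its ligand *Lgals9* at 170 to 245 and 258 to 531 CPM, and the inhibitory receptor *Pilra* at 23.9 to 42.9 and 40.2 to 55.9 CPM.

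Markers of neutrophils were present in 2 of the 3 P140 knockout libraries. Their summed level was 6.58, 4.52 and 2.68 CPM in the P120 libraries and 4.02, 854 and 4690 CPM in the P140 libraries. *S100a8*, a subunit of calprotectin, was at or under 0.0465 CPM at P120 and at 0.868, 186 and 1040 CPM at P140. *Ngp*, a granule protein, was at or under 0.0233 CPM at P120 and at 0.0789, 307 and 1380 CPM at P140. *Camp*, which encodes cathelicidin, had 0 counts in the 3 P120 libraries and in P140 replicate 1 and 1963 and 7318 counts in P140 replicates 2 and 3, so its P140 mean was at least 3680-fold higher than the P120 floor of 3 counts over the group. *Lcn2* (lipocalin 2), with the same pattern of zeros, was at least 2460-fold higher. *Ly6g*, the surface marker that defines mouse neutrophils, was at 0, 1.48 and 5.84 CPM at P140, and *Elane* and *Mpo*, enzymes of their precursors, did not pass the filter. With an adjusted p of 0.475 for *S100a8*, none of the 12 tested members was called by edgeR, while DESeq2 called 9 higher, against 2.2% of all genes given an adjusted p. P140 replicate 1 was near the P120 libraries for most of them. In bulk libraries, more cells of a type and more RNA per cell cannot be told apart.

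Monocyte and border macrophage markers summed to 1.81, 66.2 and 5.42 CPM at P120 and to 59.7, 103 and 529 CPM at P140. Of the listed genes, *Ly6c2* was at 0 in every P120 library and at 0, 0.286 and 44.5 CPM at P140, *Chil3* at 0 at P120 and at 0, 45.1 and 319 CPM at P140, and *Mrc1* at 0 in 4 of the 6 libraries. *Chil3* alone was 45.1 of the 103 CPM in P140 replicate 2 and 319 of the 529 CPM in replicate 3. Both libraries also had the high neutrophil sums, and whether its RNA came from monocytes was not tested. *Plac8* was at 0, 0 and 0 CPM at P120 and at 4.46, 1.74 and 4.74 CPM at P140. *Ms4a7* alone made up most of the sum in P120 replicate 2 (56.9 CPM) and P140 replicate 1 (43.9 CPM). The 3 tested T and NK cell markers were at or under 1.55 CPM in all 6 libraries. B and plasma cell markers, led by *Ighm*, summed to 229 to 358 CPM at P120 and 241 to 477 CPM at P140, oligodendrocyte markers to 114 to 160 and 110 to 166 CPM, astrocyte markers to 82.8 to 120 and 104 to 144 CPM, endothelial and pericyte markers to 35.5 to 83.1 and 34.5 to 111 CPM and neuron markers to 0 to 3.58 and 1.81 to 7.96 CPM. The stages overlapped for each of these 5 sums, and of 6 erythroid markers 0 passed the filter. In P140 replicate 1, whose neutrophil sum was in the P120 range, the cell cycle shift was 0.88, the smallest of the 3 P140 libraries. The DAM and oxidative phosphorylation shifts were largest in that library, which also had the strongest length relation. The part of neutrophil RNA in these list shifts was not tested. *S100a11*, a calcium-binding protein among the 10 smallest p on the higher side was at 0.837, 1.91 and 1.71 CPM at P120 and at 12, 13.2 and 47.2 CPM at P140. It was highest in the library with the highest neutrophil sum and was also above P120 in replicate 1, and the part of neutrophil RNA in its level was not tested.

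The 3 P140 knockout libraries differed more among themselves than the P120 libraries. Over the 8675 genes with a mean of at least 10 CPM over the 12 libraries, the median standard deviation of log2 CPM was 0.476 at P140 and 0.312 at P120, and the P140 value was the larger in 68.5% of genes. In the LAG-3+/+ libraries the corresponding medians were 0.461 at P140 and 0.243 at P120. P140 replicate 1 was the library apart in 4915 genes (56.7%), replicate 2 in 1565 and replicate 3 in 2195. With 1 library left out, the P140 median was 0.248 without replicate 1, 0.517 without replicate 2 and 0.437 without replicate 3. These medians rest on 2 libraries, where a standard deviation runs lower than over 3, so they are not set against the P120 value. Beyond the range of the P120 libraries by more than 1 on the log2 scale, replicate 1 had 1438 genes above and 1838 below, replicate 2 had 465 and 292, and replicate 3 had 273 and 242.

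Distances between libraries, as root mean square differences of log2 CPM, showed the same. P140 replicates 2 and 3 were 0.669 apart, against 0.682 to 0.760 between the P120 knockout libraries, while replicate 1 was 1.2 and 1.32 from them. Replicate 1 was 1.04, 1.44 and 1.03 from the 3 P140 LAG-3+/+ libraries and 1.2 to 1.40 from the P120 knockout libraries. Replicates 2 and 3 were 0.639 to 0.743 from the P120 LAG-3+/+ libraries, and 0.702 to 0.936 from the P120 knockout libraries. The length relation and the number of genes with a count moved with this ordering, and their part in it was not tested. The 10 genes with the largest range of log2 CPM among the P140 libraries at 10 CPM or more were *Ltf*, *Ngp*, *Chil3*, *Anxa1*, *S100a9*, *Camp*, *Lcn2*, *Mmp8*, *Cd177* and *Retnlg*, genes of neutrophil granules and of activated myeloid cells, with ranges of 10.7 to 13.8.

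**Figure D5:**
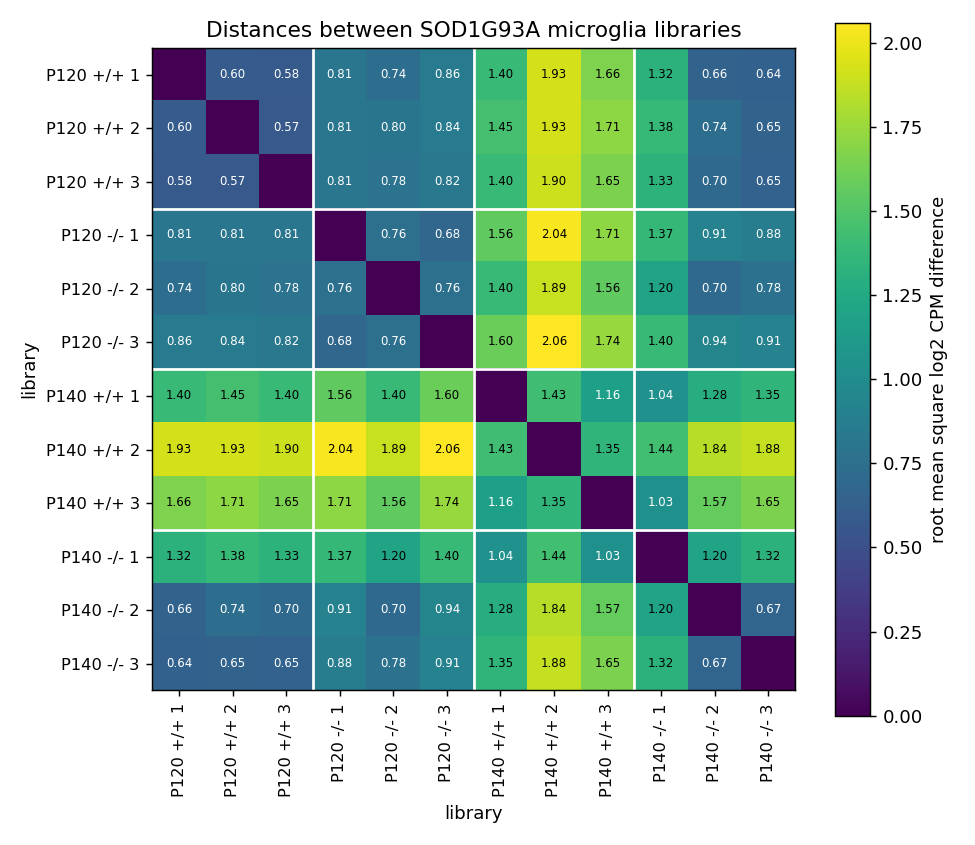
Root mean square difference of log2 CPM over 8675 genes between the 12 SOD1G93A microglia libraries, LAG-3+/+ and LAG-3-/-, at P120 and P140; darker cells are nearer pairs. P140 -/- replicate 1 was 1.03 and 1.04 from P140 +/+ replicates 3 and 1, and P140 -/- replicates 2 and 3 were 0.669 from each other.

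Whether the stage effect differed from that of LAG-3+/+ microglia was tested as an interaction in the same fit. In LAG-3+/+ microglia 2219 genes were called higher (11.9%) and 2899 lower (15.5%) at P140, with a median log2 fold change of -0.22 over all genes. The interaction was positive for 30 genes (0.161%) and negative for 2 (0.0107%), and 2541 genes had an unadjusted p under 0.05. Of those 2541, 1855 were positive and 686 negative, and the median interaction over all genes was 0.18. After length and GC correction the balance of signs reversed, with 782 positive and 1669 negative at that p and a median of -0.35. For all 30 positive genes the LAG-3+/+ stage effect was itself called and lower, and 22 of the 30 had a knockout log2 fold change under 1 in size. *Caprin1*, an RNA-binding protein of stress granules, was at 197 to 260 CPM in the P120 and 183 to 244 CPM in the P140 knockout libraries, against 213 to 237 and 52.9 to 66.3 CPM in LAG-3+/+ (interaction 1.86, SE 0.25, adjusted p = 0.0374). The stages overlapped in the knockout and were separate in LAG-3+/+. *H6pd*, the pentose phosphate enzyme of the endoplasmic reticulum, was at 24.6 to 50.3 and 13.2 to 42.0 CPM in the knockout and at 23.5 to 54.5 and 0 to 0.291 CPM in LAG-3+/+ (7.86, adjusted p = 0.0374). *Zfp568*, a KRAB zinc finger gene, was at 7.52 to 11.9 and 3.46 to 4.54 CPM in the knockout and had 0 counts in the 3 P140 LAG-3+/+ libraries. In 13 of the 30 genes those libraries held 3 counts or fewer in sum. *Gda*, guanine deaminase, had 0 counts in the P120 knockout libraries and 80, 106 and 448 counts at P140, at least 261-fold higher. The predicted gene *Gm49015* was the fifth of the 5 smallest p (interaction 10.1), with 0 counts in the P140 LAG-3+/+ libraries.

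The 2 negative genes were *H2-Aa* and *Sec61a2*. *H2-Aa* (chromosome 17, 34493404 to 34506798 of GRCm39, minus strand) was at 3.56 to 5.38 CPM in P120 and 86.2 to 89.9 CPM in P140 LAG-3+/+ libraries, against the 16.7 to 49.5 and 22 to 44.2 CPM given above for the knockout (interaction -4.30, SE 0.56, adjusted p = 0.0374). *Sec61a2*, a paralogous subunit of the translocon of the endoplasmic reticulum, was at 43.6 to 48.3 and 33.1 to 34.6 CPM in the knockout and at 18.6 to 33.3 and 75.7 to 128 CPM in LAG-3+/+ (-2.19, SE 0.38, adjusted p = 0.0908). Next by p on that side, and not called, were *H2-Eb1*, the class II beta chain (-5.07), *Araf* (-1.18) and *Gm29542* (-15.8), each with an adjusted p of 0.176. The number of interaction calls was not stable. It was 7 positive and 1 negative after length and GC correction and 0 of either with the Y-linked level as a covariate, and without P140 knockout replicate 1 it was 1187 positive and 526 negative. For the cell cycle genes *Cdk1* (1.94, adjusted p = 0.22) and *Ccnb1* (3.17, adjusted p = 0.185) and for *Axl* (2.31, adjusted p = 0.21) the interaction did not pass the threshold.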

How the data were processed

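Estimated counts per Ensembl gene, not normalized, were deposited by the authors. Per the labels and the submitters' processing notes, reads were trimmed with Trim Galore 0.6.7, quantified with Salmon 1.9.0 against the GRCm39 transcriptome and summed with tximport in R 4.2.1; the annotation release is not given in the sources used here. The deposited estimated counts were rounded. Gene names and coordinates are those of GENCODE vM39, in which 66 identifiers were absent (0.0514% of counts).

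All 12 stage libraries entered 1 model with 1 mean per group in edgeR 4.0.16 (R 4.3.3), after filterByExpr (minimum count 10, minimum total 15) and TMM scaling. The robust quasi-likelihood test was used with Benjamini-Hochberg adjustment over 18669 genes, with an adjusted p of 0.1 as the threshold for a call and no minimum fold. Log2 CPM used a prior count of 2, and the floor was 3 counts. Alternatives were DESeq2 1.42.0, limma 3.58.1, other scalings, filters, thresholds and covariates, removal of each library's trend on transcript length and GC, and each knockout library left out. The low-count filter was applied again with a library left out, so the tested members of a list could differ there. The scripts were tested on simulated data. The genes named are *Lag3*, the 10 smallest p in each direction at 10 CPM or more without predicted genes, the 3 smallest p of each list (only the summed level for some marker lists), 13 DAM and homeostatic markers, the 10 widest ranges at P140 and the 5 smallest interaction p in each direction; others are named for their role in a list. The comparison, the 19 process lists and the 10 marker lists were chosen with earlier results of these data known. One gene picked by the naming rule is not reported here.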

Additional observations from a re-analysis of the deposited data

Results flagged for a closer look

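The stage effect in knockout microglia differed from that in LAG-3+/+ microglia, by the interaction term at an adjusted p under 0.1 in edgeR, with positive sign for 30 genes and negative sign for 2. Among those named above, the interaction on the log2 scale was 9.46 for *Zfp568*, 1.86 for *Caprin1*, 18.2 for *Gda*, 7.86 for *H6pd*, -4.30 for *H2-Aa* and -2.19 for *Sec61a2*. The sizes for *Zfp568*, *Gda* and *H6pd* rest on groups with few or no counts and are no bounds. The 3 P140 LAG-3+/+ libraries and P140 knockout replicate 1 shared the strong relation with transcript length (rho of -0.523 to -0.589), and after length and GC correction 7 positive and 1 negative genes were called. *Caprin1* and *Sec61a2* were then no longer among them. No test for a single outlying library was made in groups of 3, but each knockout library was left out in turn. That gave 1187 positive and 526 negative calls without P140 replicate 1. Without any other knockout library it gave 0 positive and at most 1 negative. The listed sex, the Y-linked level or the replicate block in the model left 0 positive and 0 negative, so the calls depended on the model and on single libraries.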

How the results depend on the processing

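The absence of calls between P140 and P120 knockout microglia held under RLE size factors, CPM without TMM factors, both filters, both covariates, the 6 knockout libraries alone, the length and GC correction, limma and the replicate block (0 higher, 0 lower). DESeq2 gave 358 higher and 91 lower, and the cause was not tested. Leaving out 1 library gave 0 to 4 genes higher (4 without P120 replicate 2) and 0 to 1 lower, the latter *Gm48836* without P140 replicate 1.

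The 30 positive and 2 negative interaction calls became 13 and 1 with RLE size factors, 171 and 8 without a filter, 909 and 392 in DESeq2, 7 and 1 after the length and GC correction or at an adjusted p under 0.05, and 1529 and 677 in limma's voom with sample quality weights. The listed sex or the Y-linked level as a covariate left 0 and 0, and CPM without TMM factors left 26 positive and 1 negative. Leaving out 1 library gave 0 to 1187 positive and 0 to 526 negative, both highest without P140 knockout replicate 1; without each of the other 5 it gave 0 positive. limma and the Y-linked covariate were chosen after seeing the data. Deviations of same-numbered knockout libraries of the 2 stages correlated at -0.0453, 0.0259 and 0.111 over 8675 genes, and those of differently numbered libraries at -0.193 to 0.122. With 3 libraries a stage these values cannot show whether the replicate numbers pair the libraries. The replicate block left 0 positive and 0 negative interaction calls.

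The spread among P140 knockout libraries (0.476) was 0.423 to 0.576 under the other scales and 0.248 to 0.517 with 1 library left out. Of 101 named genes, 6 changed sign in the knockout in some setting, and none of them was called. With 1 library left out, the log2 fold change ran from -0.31 to 0.66 for *Axl*, from -0.46 to 0.17 for *Tmem119*, from -0.51 to 0.13 for *Selplg*, from -0.23 to 0.57 for *H2-Aa* and from -0.18 to 0.023 for *Caprin1*. After the length and GC correction *Tmem119* was at 0.0054, *Cx3cr1* at 0.11, *Selplg* at 0.044 and *Caprin1* at 0.38, and *H2-Aa* was at -0.27 with CPM without TMM factors and -0.11 with the Y-linked covariate. With 3 libraries a stage and a median standard error of 0.70, differences of about that size were not detectable for most genes. Differences well above their own standard error were not called either, such as 1.34 for *Cetn2* (SE 0.21) and 2.25 for *Cdk1* (SE 0.43). The absence of calls therefore does not show that the stages were alike.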
